A study of Mus musculus with 8 samples.

Results

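The genes described here encode proteins of the mitochondrial ribosome (symbols beginning Mrpl for the large and Mrps for the small subunit) and of the translocases that bring proteins into mitochondria (Timm for the inner and Tomm for the outer membrane). They were found by symbol, each name prefix being followed by a number, among the probe sets that the array annotation pairs with a single gene. The gene group was picked with results of these data known, so its direction is a description, and where a gene had several probe sets its representative was chosen by measured signal, as the one with the highest mean over all arrays. This gave 78 genes of 8251 with such a probe set, of which 40 were large subunit, 21 small subunit and 17 import genes. Another 7 probe sets carry such a name together with a second gene and were not used.

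Visual cortex came from wild-type C57Bl6 mice at postnatal day 24, 4 days after 1 eye was removed at postnatal day 20. The 4 non-deprived arrays hold cortex on the side of the removed eye, and the 4 deprived arrays cortex on the opposite side, which in mice receives most of its input from that eye. All tissue was from operated animals, so neither group shows cortex with both eyes intact. The labels count 4 mice, but the design text mentions pooling, so it is not clear whether an array is 1 animal. The p-values therefore measure spread among these samples only, and that spread may be technical.

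Mitochondria carry their own small genome, which encodes core subunits of the respiratory chain and ATP synthase. A dedicated ribosome in the matrix translates those messages, and all of its proteins are nuclear-encoded, made in the cytosol and imported. Import begins at the outer membrane, where receptors such as Tomm20 and Tomm70 hand precursors to the Tomm40 channel. From there they pass to the Timm23 translocase for the matrix, or are carried by small Timm chaperones to the Timm22 translocase for the inner membrane. Neurons depend heavily on respiration for ion pumping and synaptic transmission.

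The sequences around the gene starts are shown first because they hold features that the choice by name did not use. RefSeq promoters on GRCm38.p6, 250 bases before to 50 after a gene's start, were found for 70 of the 78 genes, 78 promoters in all. Each was searched on both strands for 8 letters of the binding motif of 3 factors known to act on nuclear genes for mitochondrial proteins: CCGGAAGT for the ETS factor GABPA, GCGCATGC for NRF1 and AAGATGGC for YY1. These motifs do not overlap in their letters, though matches can lie side by side. The GABPA letters were in 19.2% of the promoters, against 3.89% of all 32851 promoters and 6.68% of those of the named genes on the array. The YY1 letters were in 12.8%, against 2.75% and 3.73%, and the NRF1 letters in 6.41%, against 2.71% and 4.51%. Related gene groups held such letters as well: YY1 letters were in 18.8% of cytosolic ribosome and 12.3% of respiratory chain promoters, and NRF1 letters in 15.8% of respiratory chain promoters. The GABPA letters were in 9.38% and 7.02% of these groups. By group, the GABPA letters were in 5 of 18 import, 8 of 40 large subunit and 2 of 20 small subunit promoters. The YY1 letters were in 5 of 20 small subunit, 5 of 40 large subunit and 0 of 18 import promoters. Most of these YY1 matches were not upstream. They began after the gene start on the gene's own strand, at positions from 11 in Mrps18a to 36 in Mrps24. A match is a description of letters, since no binding was measured.

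The windows below are a selection of matches that begin before the gene start, at most 30 bases long, 5′ to 3′ on the gene's strand, with the matched letters in capitals. They are shown for their place relative to the start, and other genes described further on, among them Mrpl9, Mrpl49, Mrps18a and Timm10b, also hold matches.
Mrpl33, GABPA letters from position -3 relative to the start, chr5:31613937-31613966, plus strand: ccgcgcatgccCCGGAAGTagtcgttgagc
Mrpl33, NRF1 letters from -12, chr5:31613928-31613957, plus strand: taccggaacccGCGCATGCcccggaagtag
Mrpl27, GABPA letters from -55, chr11:94653725-94653754, plus strand: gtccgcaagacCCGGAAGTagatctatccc
Timm23, GABPA letters on the opposite strand from -48, chr14:32201921-32201950, minus strand: tcgcgcttcccACTTCCGGgccgcacacag
Tomm70a, GABPA letters from -80, chr16:57121623-57121652, plus strand: gccttctgaccCCGGAAGTggttctcccct
Mrpl36, YY1 letters on the opposite strand from -30, chr13:73330968-73330997, plus strand: cgtgaccttacGCCATCTTtcttcctggcg
Timm13, NRF1 letters on the opposite strand from -192, chr10:80901143-80901172, minus strand: ttatattgtacGCATGCGCagcggggaggt
In Mrpl33 the NRF1 and GABPA letters lie next to each other across the start. The median log2 difference between hemispheres was -0.11 over the 15 genes with the GABPA letters and -0.13 over the 55 without them. It was -0.07 over the 10 genes with the YY1 letters and -0.13 over the 60 without, and 0.06 over the 5 with the NRF1 letters and -0.13 over the 65 without. None of these contrasts was tested.

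Across the 78 genes, 60 had a lower mean in deprived than in non-deprived cortex and 18 a higher one, on the scale of log2(signal + 15.3). That is 76.9% below 0, against 41.4% of all 8251 genes. The median log2 difference, deprived minus non-deprived, was -0.13, against 0.05 over all genes. Dim genes were more common among all genes, of which 68.8% lay above the filter described below, against 92.3% of the 78. Among genes above that filter, 81.9% of members were below 0 with a median of -0.14, against 46.1% and 0.02 for all genes. The shift was small beside the spread between arrays. The median coefficient of variation of a gene was 18.6% among non-deprived and 24.6% among deprived arrays.

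No single gene passed the test. Of the 78 genes, 72 lay above the filter on dim probe sets, which corresponds to a mean signal of about 110.0, and were tested with limma. With Benjamini-Hochberg adjustment over all 7453 probe sets tested, 0 of the 72 were called lower and 0 higher, as were 0.0% of all probe sets in either direction, and no adjusted p was below 0.995. By limma's unadjusted p at the 0.05 level, 2 of 72 were lower (2.78%) and 0 higher, where the shares over all probe sets were 1.22% lower, 1.45% higher and 2.67% in either direction. With the replicate number as a block, 8 of 72 were lower at that level (11.1%) and 0 higher, against 3.65% and 3.38%, and adjusted p-values still called 0. Lower in all 4 same-numbered pairs were 14 of the 72 (19.4%), against 6.92% of all probe sets, and higher in all 4 was 1, against 8.95%. Signals that did not overlap between the groups were found for 0 of the 72, against 0.805% of probe sets lower and 1.23% higher in deprived cortex.

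**Figure D1:**
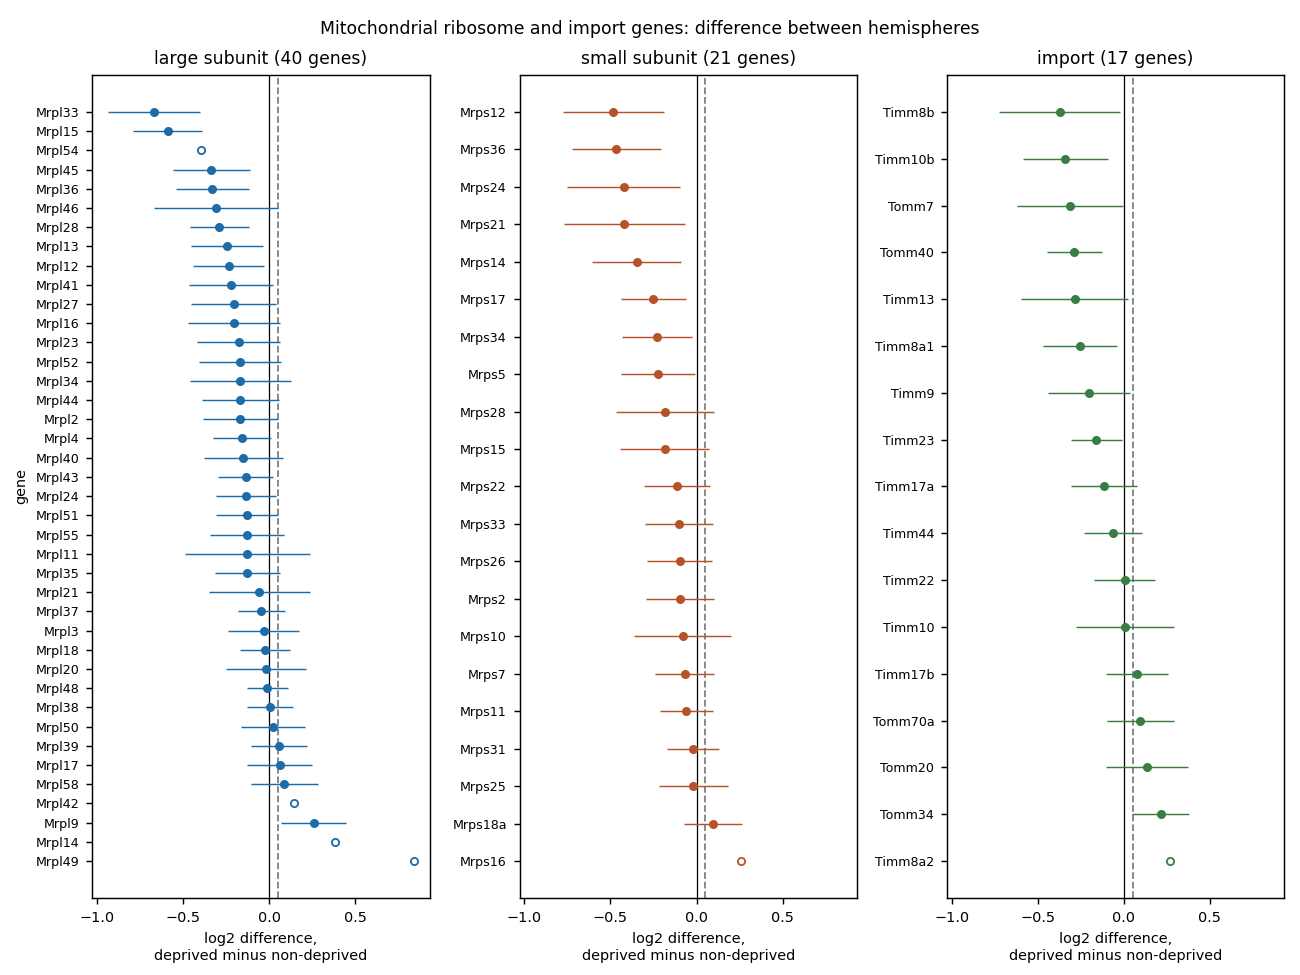
Log2 difference, deprived minus non-deprived, of each gene in 3 groups, with bars giving the limma SE, open points for genes too dim to be tested, and a dashed line at the median of all genes (0.05). Most points lie left of 0, with Mrpl33 at -0.67 and Mrpl15 at -0.59 the lowest, and most bars cross or come near 0.

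In the large subunit, 31 of 40 genes were below 0. Their median was -0.14, and they ranged from -0.67 for Mrpl33 to 0.84 for the dim Mrpl49. Mrpl15, a core protein of the subunit, had signals of 374, 285, 361 and 307 on non-deprived arrays 1 to 4 and 303, 204, 175 and 192 on deprived arrays 1 to 4. All deprived arrays but the first lay below every non-deprived one. The means were 332 ± 42.9 and 219 ± 57.6 (SD, n = 4 each), a log2 difference of -0.59 ± 0.20 (SE, limma adjusted p = 0.995). With its other, dim probe set averaged in, the difference was -0.22.

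Mrpl33, one of the smallest proteins of the subunit, had 276, 211, 489 and 376 on non-deprived and 161, 158, 207 and 285 on deprived arrays. It was lower in each same-numbered pair, but deprived array 4 exceeded non-deprived arrays 1 and 2, so the groups overlapped. The log2 difference was -0.67 ± 0.27 (SE, limma adjusted p = 0.995), and -0.48 without non-deprived replicate 3. These 2 genes are those with an unadjusted p under 0.05, at 0.0123 for Mrpl15 and 0.0286 for Mrpl33 in limma. With the replicate block their adjusted p was 0.697 and 0.670.

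The next 3 by p had smaller differences and did not pass the test. Mrpl28 had 1004, 957, 1029 and 1058 on non-deprived and 925, 673, 681 and 1090.4 on deprived arrays, so only deprived arrays 2 and 3 were clearly lower. Mrpl36 had 366, 235, 356 and 375 against 307, 201, 223 and 318, with array 2 the lowest of each group. Mrpl45, which helps anchor the ribosome to the inner membrane, had 691, 498, 694 and 897 against 694, 513, 365 and 635. Pairs 1 and 2 of Mrpl45 were nearly level and pairs 3 and 4 lower in deprived cortex. Their log2 differences were -0.29, -0.33 and -0.33.

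For Mrpl45 the choice of probe set decided the direction. Its brightest probe set, with a mean signal of 623, gave -0.33, and the other, at 559, gave 0.14. That other one has an identifier of a class that can match several similar transcripts, so the 2 may not measure the same thing. For Mrpl18 the brightest probe set at 1857 gave -0.03 and the other at 571 gave -0.39. In Mrpl48 the brightest, at 1169 and of that same class, gave -0.01 and the other, at 503, gave -0.26. Both brightest and next values are close to level between hemispheres in Mrpl50, at 0.02 and -0.09. Of 17 further probe sets of the 78 genes, 10 were tested, and 6 of these had the sign of the brightest one.

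The brightest large subunit probe sets gave small differences. Mrpl18 had 1628, 1623, 2177 and 2088 on non-deprived and 1748, 1689.7, 1813 and 2089 on deprived arrays. Mrpl4 had 1516, 1400.3, 1695 and 1892 against 1574, 1187, 1264 and 1863. Mrpl27 had 1181, 952, 1460.3 and 1398 against 1217, 686, 907 and 1695, with array 2 the lowest of each group. The log2 differences were -0.03, -0.16 and -0.21. The probe sets used for Mrpl18, Mrpl48, Mrps25, Tomm70a and Timm8a2 have identifiers of the class that can match several similar transcripts, so their signal may not come from 1 gene alone. The Timm10b probe set is of another class that transcripts can share.

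A few large subunit genes had higher values in deprived cortex. Mrpl9 had 228, 238, 192 and 240.3 on non-deprived and 303, 241, 218 and 335 on deprived arrays, higher in each pair, at 0.26 ± 0.19 (SE, limma adjusted p = 0.995). Mrpl58, a release factor that frees stalled ribosomes, lay at 0.09. Mrpl49 had 18.1, 15.8, 28.4 and 22.1 against 28.7, 31.8, 111 and 51.9. The Mrpl49 groups did not overlap, but the probe set was too dim to be tested. Counting dim genes too, 1 of the 78 members was higher without overlap, against 166 of all 8251 genes. The other Mrpl49 probe set, dimmer still at a mean signal of 6.68, gave 0.26. On the non-deprived side the signals of the brighter probe set were little above the 10th percentile of all signals, and on the deprived side further above it. That percentile was 13.5 ± 0.718 on non-deprived and 17.2 ± 2.68 on deprived arrays (SD, n = 4, exact two-sided permutation p = 0.0286, the smallest possible). The part of that array difference in the value for Mrpl49 was not tested. The other large subunit genes too dim to be tested were Mrpl54 at -0.39, Mrpl42 at 0.15 and Mrpl14 at 0.38.

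In the small subunit, 19 of 21 genes lay below 0, with a median of -0.11. Mrps12, the counterpart of the bacterial protein that guards decoding accuracy, had 684, 572, 1019 and 867 on non-deprived and 717, 296, 478 and 861 on deprived arrays. Pairs 1 and 4 were nearly level. Array 2 was lower in deprived cortex, at 296 against 572, and array 3 at 478 against 1019. The SDs within the non-deprived and deprived groups were 197 and 251. The log2 difference was -0.48 ± 0.30 (SE, limma adjusted p = 0.995), and -0.20 without deprived replicate 2.

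Mrps36, named as a ribosomal protein but since found in the ketoglutarate dehydrogenase complex, had 489, 444, 1072 and 906 on non-deprived and 496, 423, 527 and 508 on deprived arrays. The 4 deprived arrays were alike, and non-deprived arrays 3 and 4 were about double the other pair of their group in signal. Its log2 difference was -0.47 ± 0.26 (SE, limma adjusted p = 0.995), and -0.25 without non-deprived replicate 3.

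Mrps14 had 1028, 608, 1044 and 1240.2 against 869.5, 505, 637 and 1085. It was lower in each pair, while array 2 was the lowest of both groups. Mrps17 had 904, 928, 1294 and 1249 against 855, 883, 729 and 1218, also lower in each pair. Mrps24 had 572, 432, 731 and 789 against 623, 319.9, 257 and 821, with pairs 1 and 4 slightly higher in deprived cortex. The log2 differences of these 3 were -0.35 ± 0.26, -0.25 ± 0.19 and -0.42 ± 0.33 (SE). Mrps21, with -0.42, was lower in each pair but ranged from 440.1 to 1542 over the arrays.

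Mrps34, a protein found only in the mitochondrial form of the ribosome, had 1417, 942, 1000.4 and 1291 against 1249, 671, 1062 and 1019. Mrps18a had 1199, 895, 1091 and 731 against 912, 1032, 1046 and 1144. It was the one tested small subunit gene above 0, at 0.10, and its 3 other probe sets gave 0.11, 0.20 and 0.05. Structures place this protein in the large subunit despite its name. The remaining gene above 0 was Mrps16 at 0.26, too dim to be tested, with signals from 31.2 to 173.

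Of the import genes, 10 of 17 lay below 0, with a median of -0.12. Tomm40, the channel of the outer membrane, had 545, 431, 663 and 520.4 on non-deprived and 467, 410.2, 410.0 and 453 on deprived arrays. It was lower in each pair, and deprived arrays varied little, with means of 540.0 ± 96.0 and 435 ± 29.3 (SD, n = 4). The log2 difference was -0.29 ± 0.16 (SE, limma adjusted p = 0.995). The receptors lay slightly above 0 but within their SE of it, so their direction is not clear. Tomm70a had 2279, 2864, 2274 and 2582 against 2167, 3769, 3051 and 2009, a log2 difference of 0.10 ± 0.19 (SE), and its other probe set gave -0.13. Tomm20 lay at 0.13 ± 0.24 (SE). Tomm7, a small subunit that tunes assembly of the outer membrane complex, had 2453, 1399, 2464 and 2973 against 2314, 1224, 1219.8 and 3033, at -0.31 ± 0.31 (SE).

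Tomm34, a cytosolic co-chaperone of import, had 1256, 1325, 1155 and 1291 on non-deprived and 1331, 1522, 1959 and 1141 on deprived arrays. It was higher in 3 of 4 pairs, at 0.21 ± 0.17 (SE, limma adjusted p = 0.995), and 0.07 without deprived replicate 3.

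Of the small chaperones of the intermembrane space, most lay below 0. Timm10b had 545, 394, 771 and 827 against 421, 384, 469 and 681, lower in each pair, at -0.34 ± 0.25 (SE), while its other probe set gave 0.13. Timm8a1, whose human counterpart is lost in a deafness and dystonia syndrome, had 283, 273, 186 and 225 against 255, 153, 175 and 222, at -0.26 ± 0.22 (SE). Timm13, its partner in carrying precursors, had 3346, 1398, 2755 and 2670.3 against 2544, 1114, 1884 and 2894. Array 2 of Timm13 lay far below the other arrays in both groups, and the difference was -0.29 ± 0.31 (SE), or ± 0.12 with the replicate block (limma adjusted p = 0.995 and 0.703). It was lower in 3 of 4 pairs. Timm8b at -0.37 and Timm9 at -0.20 were also below 0, and Timm10 at 0.01 was level.

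At the inner membrane, Timm23, the channel-forming subunit, had 1982, 1786, 1743 and 2227 against 2117, 1641, 1432 and 1765, at -0.16 ± 0.15 (SE). Its partners Timm17a and Timm17b lay at -0.12 and 0.08, and Timm44, which tethers the import motor, at -0.06. Timm22, of the carrier translocase, lay at 0.01. None of these 5 passed the test. Timm8a2, a close copy of Timm8a1, had a mean signal of 11.2, too dim to be tested.

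Arrays differed more than hemispheres did. The mean log2 value over the 40 large subunit genes was 8.72, 8.50, 8.78 and 8.89 on non-deprived and 8.73, 8.37, 8.46 and 8.90 on deprived arrays. Over the small subunit it was 8.88, 8.52, 8.87 and 8.90 against 8.83, 8.29, 8.44 and 8.93, and over import genes 9.32, 8.98, 9.37 and 9.41 against 9.27, 8.91, 9.13 and 9.40. In each of the 3 groups array 2 was the lowest of its hemisphere, deprived array 3 came next, and array 4 was the highest. Of the 78 genes, 48 had their lowest non-deprived value on array 2 (61.5%, against 28.1% of all genes), and 41 their lowest deprived value on array 2 (52.6%, against 23.2%). For 43 genes deprived array 4 was the highest of its group (55.1%, against 27.7%).

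**Figure D2:**
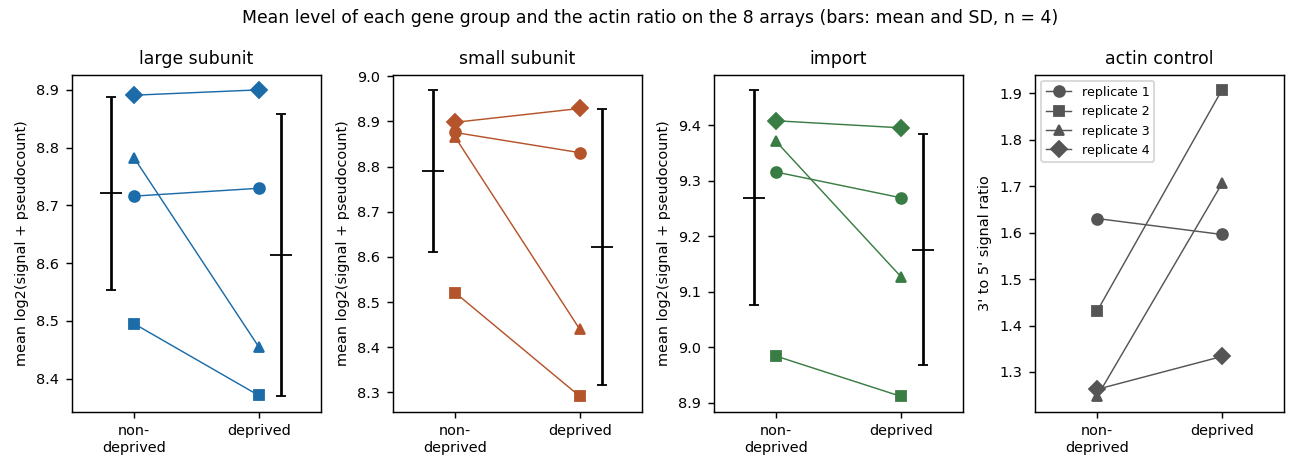
Mean log2(signal + 15.3) of each gene group on the 8 arrays, lines joining same-numbered arrays, black bars giving mean and SD (n = 4), and at right the 3′ to 5′ signal ratio of the actin control. The lines of replicates 1 and 4 are nearly flat, replicate 3 drops steeply, and replicate 2 is lowest on both sides, while the actin ratio is highest on deprived array 2 at 1.91.

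**Figure D3:**
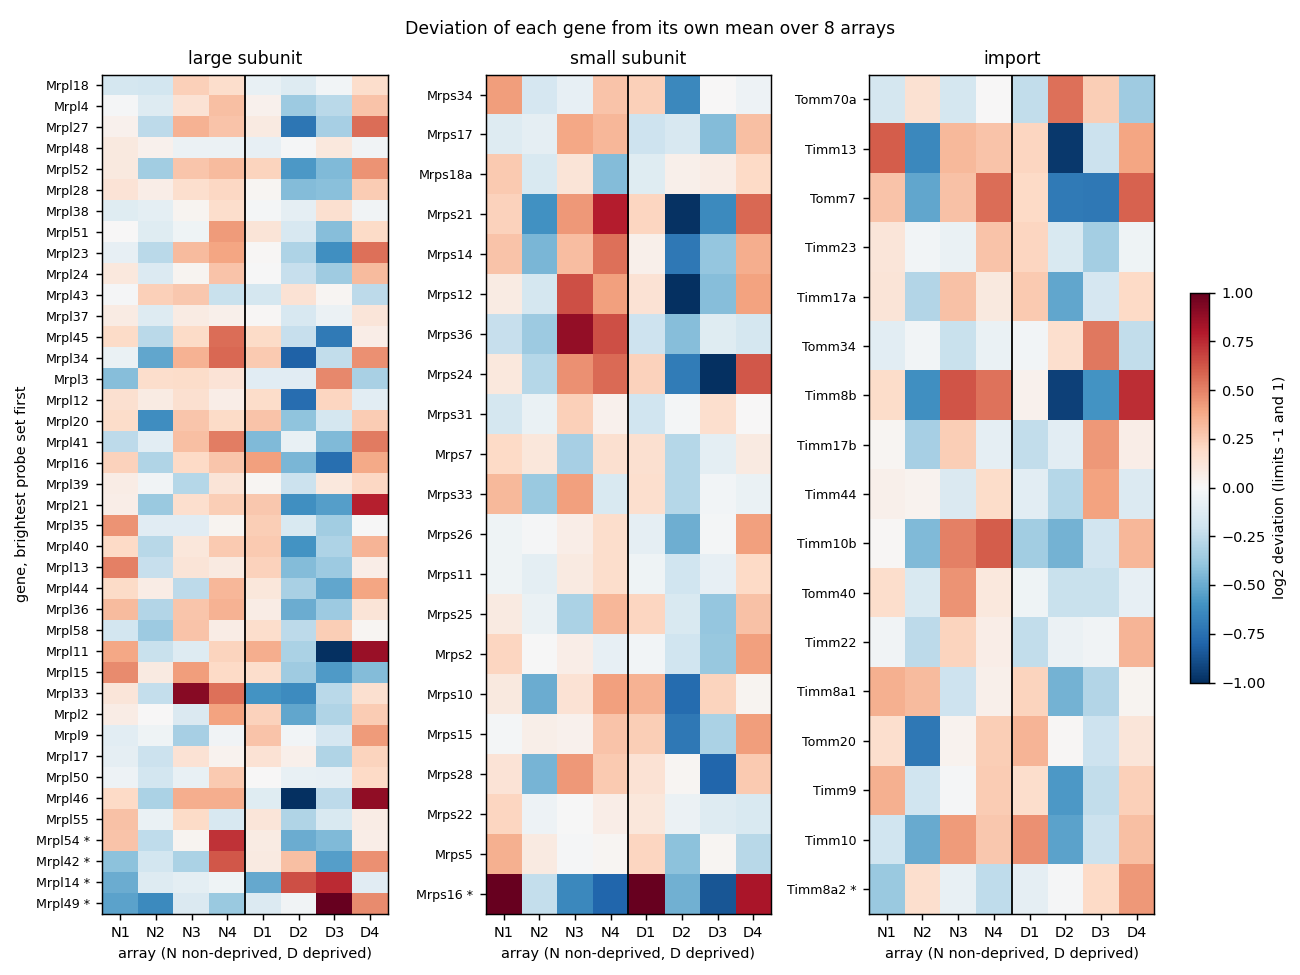
Log2 deviation of each gene from its own mean over the 8 arrays, colour scale ending at -1 and 1, with a star for genes too dim to be tested. Columns N2, D2 and D3 are blue for most genes and columns N3, N4 and D4 red, so the pattern runs by array as much as by hemisphere.

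Most of the difference came from 2 of the pairs. The median over the 78 genes was -0.02 in pair 1, -0.16 in pair 2, -0.35 in pair 3 and -0.01 in pair 4. In pair 3, 61 of 78 genes were lower in deprived cortex (78.2%, against 42.5% of all genes), and in pair 4 there were 40 (51.3%, against 45.0%). Without both arrays numbered 3 the median of the 78 genes was -0.06, and without both numbered 2 it was -0.10. Without deprived replicate 2 alone it was -0.02.

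Actin control probe sets at both ends of the transcript give a 3′ to 5′ signal ratio that grows as RNA is degraded. It was 1.63, 1.43, 1.25 and 1.26 on non-deprived and 1.60, 1.91, 1.71 and 1.33 on deprived arrays. Deprived arrays 2 and 3, with the lowest values for these genes in their group, had the highest ratios, and pairs 1 and 4 were close to level in both. Non-deprived array 2, also low in the genes, had the second highest actin ratio of its group. The highest was on non-deprived array 1, which was not low in the genes. Its mean log2 value over the 78 genes was 8.89, against 8.61 on non-deprived array 2. The Gapdh ratio was 0.871, 0.977, 0.856 and 0.887 on non-deprived and 0.856, 0.801, 0.831 and 0.882 on deprived arrays, highest on non-deprived and lowest on deprived array 2. The part of RNA quality in the low values was not tested beyond fits that include these ratios. When the fit included the actin ratio, the 78 genes had a median of 0.06, against 0.03 for all genes, and 12 of 40 large subunit, 6 of 21 small subunit and 6 of 17 import genes lay below 0. With the ratio of the Gapdh control the median was -0.10. Group means of the actin ratio were 1.39 ± 0.179 and 1.64 ± 0.239 (SD, n = 4, exact two-sided permutation p = 0.171).

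Neighbouring gene groups were on the same side. For the cytosolic ribosome 24 of 30 genes lay below 0 with a median of -0.13, and for respiratory chain and ATP synthase subunits 50 of 65 with a median of -0.17. In pair 3 these medians were -0.45 and -0.61, so the lower values are not particular to the mitochondrial ribosome and import genes. For all of these lists 0 genes were called by limma.

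**Figure D4:**
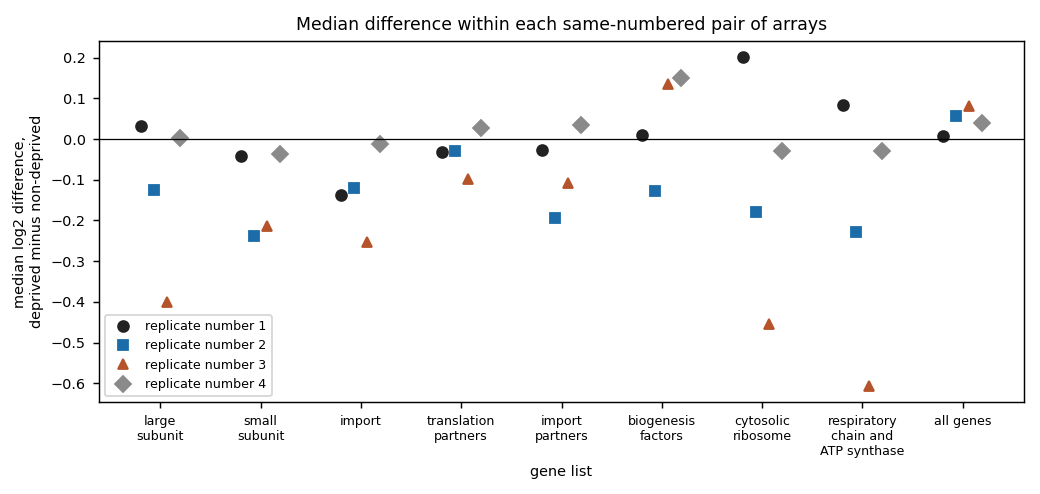
Median log2 difference, deprived minus non-deprived, within each same-numbered pair of arrays for 9 gene lists. Replicate number 3 is lowest for the large subunit (-0.40), the cytosolic ribosome (-0.45) and the respiratory chain (-0.61), while medians over all genes lie between 0.01 and 0.08.

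Other genes of mitochondrial translation, outside the name rule, were nearer to level. Of 20 translation factors, tRNA synthetases and RNA-binding proteins, 11 lay below 0 with a median of -0.05, and 0 of 18 tested passed in either direction. Sars2, which charges mitochondrial serine tRNA, had 452, 388, 474 and 478 on non-deprived and 484, 665, 790.2 and 419 on deprived arrays, higher in 3 of 4 pairs, at 0.35 ± 0.20 (SE). Kars, the lysyl-tRNA synthetase of both cytosol and mitochondria, had 246, 159.5, 47.5 and 173 against 265, 281, 383 and 109, at 0.73 ± 0.44 (SE). Without non-deprived replicate 3, where it was dimmest, the difference was 0.31, and its lowest value over the 23 alternatives described below was 0.03. Tufm, the elongation factor that brings tRNAs to the ribosome, lay at -0.24 ± 0.15 (SE) and was lower in each pair.

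Of 21 import partners, such as motor subunits, processing peptidases and matrix chaperones, 15 lay below 0 with a median of -0.09, and 0 of 19 tested passed in either direction. Pam16, a regulator of the import motor, had 644, 389, 818 and 676 against 581, 264, 442 and 626, lower in each pair, at -0.41 ± 0.28 (SE). Hspd1, the matrix chaperonin, had 3970.1, 4772, 2448 and 3222 against 3852, 1617, 1424 and 4252, at -0.49 ± 0.34 (SE). Its co-chaperonin Hspe1 lay at -0.34 ± 0.24 (SE).

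Factors that drive mitochondrial DNA expression and biogenesis showed no common direction. Of 15, 7 lay below 0 with a median of 0.01, and 0 of 10 tested passed in either direction. Ppargc1a, a coactivator of mitochondrial biogenesis, had 84.2, 107, 103 and 137 against 129, 178, 116 and 117, at 0.29 ± 0.24 (SE), and the related Pprc1 lay at 0.28 ± 0.28 (SE). Gabpa itself lay at 0.01 ± 0.21 and Yy1 at 0.16 ± 0.18 (SE). Tfam, Polg, Polg2, Sirt1 and Myc were too dim to be tested.

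In tissue samples fewer cells of a type and less RNA per cell cannot be told apart. The summed signal of 6 markers listed for excitatory cortical neurons was 26063 to 28917 on non-deprived and 26196 to 27717 on deprived arrays. All 6 were above the filter. Snap25, with a mean signal of 14932, was the largest part of that sum and can hide the others. Neurod2 lay at -0.34 and Neurod6 at -0.26, while 2 of the 6 were above 0 and 0 were called. That of 5 astrocyte markers was 13564 to 18999 and 13863 to 17914, with array 2, the lowest for the ribosomal and import genes, the highest of both groups. The summed signal of 2 blood markers was 9728, 7940, 14628 and 12563 on non-deprived and 13364, 8058, 8127 and 11674 on deprived arrays. Like the genes, it was lowest on array 2 of both groups, low on deprived array 3 and high on non-deprived arrays 3 and 4. Unlike them, it was highest among deprived arrays on array 1, where the genes were highest on array 4. Nearly all of the sum was Hba-a1, with a mean signal of 10352 beside 408 for Alas2. Their log2 differences were -0.13 and 0.05. The part of cell type or blood content in those values was not tested. Sums also overlapped for interneurons (13580.4 to 16116, and 12584 to 15090.0), oligodendrocytes, microglia, endothelium, thalamus and striatum. Of choroid plexus markers, 3 of 3 were below the filter. These ranges leave out the pairing. The interneuron sum was lower in deprived cortex in each same-numbered pair, though 2 of its 6 markers lay above 0. The thalamus sum was higher in each pair, and the other overlapping sums named here went both ways. None of these paired differences was tested. The sums of 3 hippocampus markers barely overlapped, at 1046 to 1193 on non-deprived and 846 to 1048 on deprived arrays, and were lower in each pair. Of these markers only Wfs1 was above the filter, at -0.28, and 2 lay above 0. Array medians of the signal ran from 183 to 209, and Pearson's r between arrays, across probe sets, from 0.948 to 0.975.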

How the data were processed

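The authors deposited 1 linear intensity for each probe set and array, computed with MAS5 per the submitters' processing notes, with version and settings not given in the sources used here. Each array was rescaled to a common 2% trimmed mean, 66 control probe sets of 12488 were left out, and values were analysed as log2(signal + 15.3). The pseudocount equals the 10th percentile over all arrays and shrinks differences of dim genes, and the number of arrays limits the precision. Probe sets above the 40th percentile of mean log2 value, 7453 of 12422, were tested with limma 3.58.1 under R 4.3.3, two-sided at 0.05, with lmFit and a trended eBayes. Tests covered all probe sets, and no p was computed over the members alone. Differences and medians are over all members, tested or not.

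Of 12422 probe sets, 10833 had 1 symbol, 396 several and 1193 none. Through Entrez identifiers 10817 matched the GRCm38.p6 gene table, which changed 0 symbols. The fit was tested on simulated data. The members and lists were chosen with earlier results of these data known. The text names, in each group, the 5 genes with the smallest p, those without overlap and the 3 brightest, plus 2 per other list. Further genes were chosen after their values were seen.

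Deviations from group means correlated at 0.16 to 0.42 between same-numbered samples and -0.27 to 0.12 between others. All 4 pairs lay above 0.1, a limit that the highest value between others also passed, and the numbers were taken to pair the samples. The main fit left this pairing out. SEs, p-values and the choice of named genes come from it unless the replicate block is named. With the block most members had a smaller SE, such as 0.12 in place of 0.26 for Mrps14 and 0.17 in place of 0.35 for Mrps21. Figures used matplotlib 3.10.9 in Python 3.11.15.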

Additional observations from a re-analysis of the deposited data

Results flagged for a closer look

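Of 66 groups of 4 values examined, 2 held 1 value far apart from the rest, where chance gives about 1 in 20, or 3.3. For the mean log2 value over the small subunit genes, non-deprived replicate 2 lay at 8.52 while the other 3 lay at 8.87 to 8.90, and the gap was 0.914 of the group's range. For Mrpl36, a zinc-binding protein of the large subunit, non-deprived replicate 2 had a signal of 235 and the others 356 to 375, a gap of 0.868 of the range. Without that array the log2 difference of Mrpl36 was -0.48, against -0.33 with it.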

How the results depend on the processing

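Under 22 of 23 alternatives the medians of large subunit, small subunit and import genes stayed below 0. The exception was the actin ratio as a covariate, with 0.089, 0.039 and 0.059 and with 12, 6 and 6 genes below 0. With one sample left out the medians ran from -0.27 to -0.01, -0.25 to -0.05 and -0.22 to -0.01. Quantile scaling gave -0.17 and cyclic loess -0.16 over all members. Calls stayed at 0 under the 22 alternatives fitted, and the smallest adjusted p of a member in limma ran from 0.670 with the replicate block to 1.00. The block moved no median (-0.14, -0.11 and -0.12) and changed no call. Of 30 genes named by the rule, 15 turned sign in 27 of 690 values. With the actin ratio these were Mrps12 (0.039), Mrps17 (0.022), Mrps14 (0.011), Mrps24 (0.10), Timm10b (0.026), Mrpl18 (0.16), Mrpl27 (0.22), Mrpl4 (0.090), Timm13 (0.034), Tomm7 (0.13) and Tomm70a (-0.14), and with the Gapdh ratio Hspd1 (0.096) and Tomm70a (-0.0030). With the mean of its probe sets Mrpl36 was at 0.089, a dim one entering equally, and Tomm70a at -0.015, and with quantile scaling Mrpl18 was at 0.0096. Leaving out an array, or both of one number (a setting chosen after seeing the data), gave -0.091 to 0.053 for Mrpl18, -0.43 to 0.0017 for Mrpl27, -0.071 to 0.25 for Tomm70a, -0.082 to 0.26 for Mrps18a and -0.032 to 0.56 for Pprc1. Other causes were not tested. Dim members had only differences and no test.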

Other observations

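A pair of interacting RNA-binding proteins lay at opposite ends of their ranges on array 2. Slirp and Lrpprc together stabilise mitochondrial messenger RNAs. Slirp had signals of 558, 236, 689 and 754 on non-deprived and 615, 218, 317 and 894 on deprived arrays, lowest on array 2 of both groups. Lrpprc had 688, 926, 591 and 754 against 651, 902, 657 and 795, highest on array 2 of both. The opposition was not general, since both genes were higher on array 4 than on array 1 in each group. The log2 differences between hemispheres were -0.20 ± 0.43 and 0.03 ± 0.17 (SE), neither past the test. These genes were picked after their values were seen.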
